A study of Mus musculus with 11 samples.

Results

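The complement receptors and regulators C3ar1, C5ar1, Cd93, Cd55, Cr1l and Cd59a were followed across 11 single-cell RNA-seq libraries of sorted mouse macrophages (macs). The 6 genes were chosen by name, for their place in the complement system, from the 27998 genes counted in every library, and all 6 were found in the 11 libraries. Each library held 1 tissue and 1 genotype, prepared with the 10x Genomics droplet method, in which every captured transcript carries a unique molecular identifier (UMI). WT cells came from Zeb2fl/fl mice, which lack a CRE recombinase, and Zeb2KO cells from mice in which a CRE deletes the floxed Zeb2 alleles, encoding a zinc-finger transcription factor of the mac lineage. The tissues were brain (microglia), colon (colonic macs, CMs), liver (Kupffer cells, KCs), lung (alveolar macs, AMs) and spleen (splenic macs, SMs). An eleventh library held KCs of Nr1h3fl/fl mice, also CRE-negative, so that the liver had 2 control libraries of different floxed alleles (Nr1h3 encodes the nuclear receptor LXRα). By the sample labels every Zeb2KO library came from Fcgr1-cre x Zeb2fl/fl mice (the Fcgr1 gene encodes the mac Fc receptor CD64). For liver and lung the study's methods instead describe Clec4f-cre (KCs) and Itgax-cre (AMs, alongside other CD11c-expressing cells), so the driver was treated as unsettled there. Mice were C57Bl/6, of both sexes, 6 to 8 weeks old, with littermate controls. How many animals each library pooled was not given in the sources used here. Microglia were sorted as CD45int CD64+ F4/80+ cells, KCs by Clec4F, AMs by CD11c and SiglecF, and CMs and SMs by CD64 and F4/80 without Ly6C, Ly6G or SiglecF.

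Complement is a cascade of plasma proteins that is set off by antibody and C1q, by lectins, or by spontaneous turnover of C3. Cleavage of C3 and C5 releases the small peptides C3a and C5a, which call in and activate myeloid cells through the receptors C3aR (C3ar1) and C5aR1 (C5ar1), while C3b and C4b stay on surfaces, mark them for uptake and assemble the convertases that carry the cascade on to the membrane attack complex. Cells protect themselves with membrane regulators: Cd55 (decay-accelerating factor) takes convertases apart, Cr1l (Crry), the widespread rodent regulator, does so too and also serves as a cofactor for the cleavage of C3b and C4b, and Cd59a stops the assembly of the membrane attack pore. Cd93 is a lectin-like transmembrane receptor of myeloid and endothelial cells, first described as a receptor linked to C1q-enhanced phagocytosis. Microglia use C3 and its receptors in the pruning of synapses, and KCs clear opsonised particles from the blood, mainly through Vsig4 (CRIg).

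All values below are UMIs summed over the kept cells of a library and scaled to counts per 1000000 UMIs (CPM) of that library. Since there was 1 library per tissue and genotype, no test was possible within a tissue, and cells were not used as replicates. A gene was called changed in a tissue when the log2 ratio of CPM + 1, Zeb2KO over WT, was at least 1 in size and the higher library reached 20 CPM. The 95% intervals given are exact Poisson intervals of a level, or exact conditional binomial intervals of a fold, and cover counting error only. The 10x chemistry counts transcript ends, so a CPM value was compared between libraries for 1 gene and never between genes. Kept cells numbered 2830 to 6973 per library and held 8207335 UMIs (SM WT) to 43004894 UMIs (CM WT). No library shared more than 1.45% of its barcodes with another, counted on the smaller one. The summed level of each tissue's marker list was highest in the libraries of its own tissue, though single genes weighed heavily and did not all follow. In WT AMs Chil3 made up 5761 of the 6697 CPM of the AM list. Cx3cr1, of the CM list, was at 2923 CPM in WT microglia and 581 CPM in WT CMs. The Zeb2 transcript was higher in the Zeb2KO than in the WT library of every tissue (for example 475 CPM in WT and 1747 CPM in Zeb2KO microglia); the tags lie at the end of the transcript, outside the deleted part, so Zeb2 counts did not check the labels. KCs and AMs were sequenced on a NextSeq and the other tissues on a HiSeq instrument, and platform and tissue cannot be told apart.

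The promoters were read first because Zeb2 binds E-boxes in DNA. RefSeq windows on GRCm38.p6 (the mm10 build of the count files) from 250 bases before to 50 after the start site were matched for 5 of the 6 genes. The letters CAGGTG and CAGGTA, the E-boxes favoured by ZEB proteins, were searched on both strands, and the pair share their first 5 letters but cannot both match at 1 place on 1 strand. Neither was found in any of the 5 windows, while 29.5% of 32851 RefSeq windows of 300 bases held at least 1 of them. The absence covers these letters in these windows only. The bases before the start site are shown for C3ar1, which had the largest ratio, and Cd55, which was called higher in Zeb2KO SMs and was lower, short of a call, in Zeb2KO KCs, read 5′ to 3′ on the minus strand, at chr6:122856158-122856407 and chr1:130462745-130462994.
C3ar1 upstream: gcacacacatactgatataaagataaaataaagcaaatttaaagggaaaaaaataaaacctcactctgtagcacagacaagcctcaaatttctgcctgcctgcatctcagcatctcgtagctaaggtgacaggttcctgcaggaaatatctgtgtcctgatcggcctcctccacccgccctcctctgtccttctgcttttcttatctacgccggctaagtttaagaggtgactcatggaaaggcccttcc
Cd55 upstream: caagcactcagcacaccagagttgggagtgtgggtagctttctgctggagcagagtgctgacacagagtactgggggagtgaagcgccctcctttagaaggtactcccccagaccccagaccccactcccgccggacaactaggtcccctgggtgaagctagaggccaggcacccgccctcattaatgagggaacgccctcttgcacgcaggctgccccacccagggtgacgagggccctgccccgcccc
No base is in capitals because no searched motif occurred. By the GENCODE annotation of the same build, C3ar1 lies on chromosome 6 (122847138 to 122856161, minus strand), C5ar1 on chromosome 7 (16246743 to 16259540, minus), Cd93 on chromosome 2 (148436640 to 148443563, minus), Cd55 on chromosome 1 (130439027 to 130462744, minus), Cr1l also on chromosome 1 (195097382 to 195131586, minus) and Cd59a on chromosome 2 (104095801 to 104115354, plus). All 6 are protein-coding.

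The first question was where the members were present without deletion of Zeb2. Among the WT libraries of the 5 tissues the anaphylatoxin receptors were abundant in most mac types and nearly missing in a single one or a pair of them, whereas Cr1l was present everywhere. C3ar1 stood at 286 CPM in CMs (95% interval 281 to 291), 204 CPM in microglia (196 to 212) and 141 CPM in KCs (136 to 146), against 1.71 CPM in SMs (14 UMIs) and 0.109 CPM in AMs (3 UMIs). No neighbouring levels in this order had overlapping intervals. C5ar1 was highest in CMs as well (499.9 CPM, 493 to 507), followed by AMs (263 CPM), microglia (153 CPM) and KCs (96.0 CPM), and stood at 5.24 CPM in SMs (43 UMIs). C3ar1 thus had its lowest WT level in AMs, where C5ar1 had its second highest, and both were low in SMs.

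Cd93 was for the most part a CM transcript, at 237 CPM (232 to 241). AMs had 21.5 CPM (589 UMIs), KCs 3.46 CPM (81 UMIs), SMs 2.19 CPM (18 UMIs) and microglia 0.0811 CPM (1 UMI). The intervals of KCs and SMs overlapped, and all other neighbours were apart. In KCs even this low level came mainly from a small cluster: 69 WT cells led by Alox15 and Prg4 held 58.0% of all Cd93 UMIs of the library, at 52.8 CPM. The KC marker list (Clec4f, Timd4, Cdh5, Cd5l) summed to 2578 CPM in that cluster and 12649 CPM in the other KCs, so its cells did not carry the KC markers at the level of the rest.

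The membrane regulators had a different distribution. Cd55 was at 43.9 CPM in SMs (39.4 to 48.6) and 38.4 CPM in KCs (35.9 to 40.9), with overlapping intervals, and at 25.9 CPM in CMs. AMs had 1 Cd55 UMI (0.0364 CPM) and microglia had 0 of 12334676 UMIs, which allows a level of up to 0.243 CPM (3 counts). Cr1l was found at 128 CPM in microglia, 66.7 CPM in KCs, 55.4 CPM in CMs, 40.9 CPM in SMs and 37.4 CPM in AMs, a range of 3.43-fold, with overlapping intervals for SMs and AMs only. Cd59a was low throughout: 9.02 CPM in SMs and 8.19 CPM in KCs, whose intervals overlapped, 5.42 CPM in CMs, 1.05 CPM in microglia and 0.474 CPM in AMs. Cd55 and Cd59a each have a paralogous neighbour, Cd55b and Cd59b. These reached at most 0.410 and 1.21 CPM in any library, but reads of a shared stretch could have been assigned to either copy or dropped, so the levels of Cd55 and Cd59a are uncertain to that extent.

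**Figure D1:**
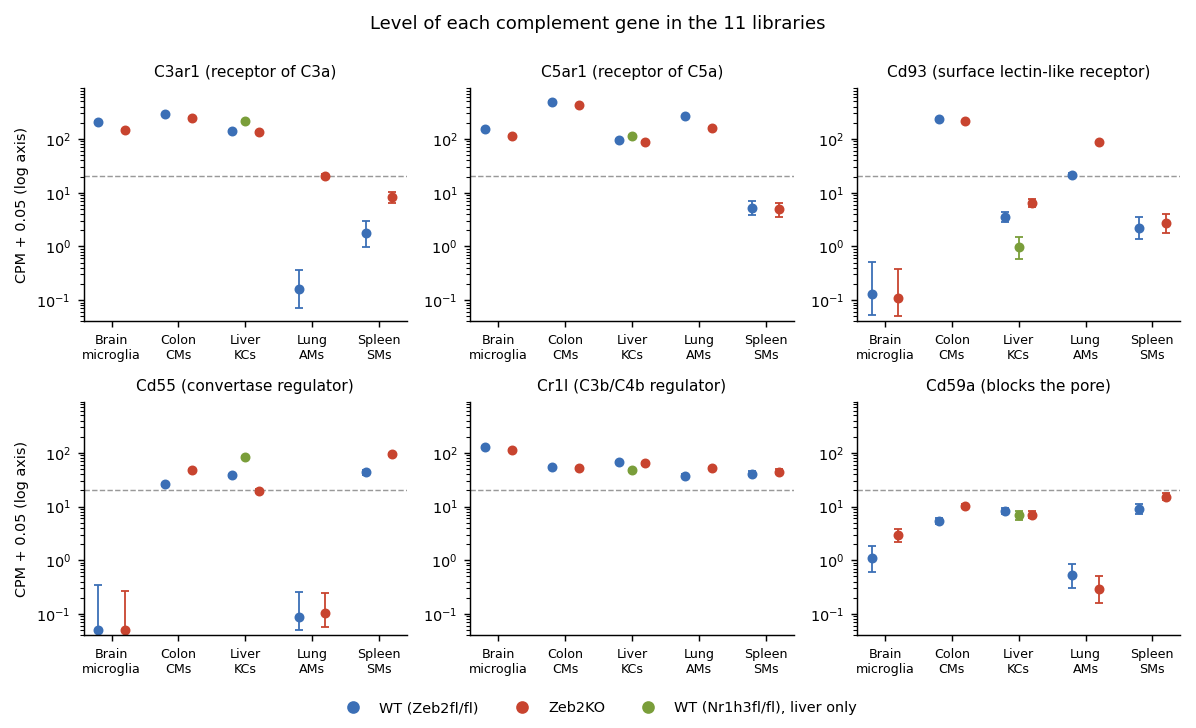
Level of each of the 6 genes in each of the 11 libraries, as CPM + 0.05 on a log axis, with points for single libraries coloured by genotype and bars for the exact 95% Poisson interval; the dashed line marks 20 CPM. Cr1l lies above the line in 11 of 11 libraries and Cd59a in 0 of 11, while C3ar1 drops to 0.109 CPM in WT AMs and Cd55 to 0 in both microglia libraries.

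Counted over the 11 libraries, C3ar1 reached 20 CPM in 8, C5ar1 in 9, Cd93 in 4, Cd55 in 6, Cr1l in 11 and Cd59a in 0. Over these libraries Cd55 and Cd59a varied most alike of the pairs of members (Pearson's r = 0.92 on log2(CPM + 1)), though Cd59a was low throughout. C3ar1 and Cr1l (r = 0.61) followed, then C5ar1 and Cd93 (r = 0.53). C3ar1 and C5ar1, the 2 peptide receptors, had r = 0.50. Among the 8021 genes that reached 20 CPM somewhere, those whose levels varied much like C3ar1 included the unnamed locus RP23-81F19.2 (r = 0.96) and Cd68, a lysosomal glycoprotein of macs (r = 0.94). Those closest to Cd55 were Fcna, a ficolin of the lectin pathway (r = 0.98), Clec4a1 (r = 0.97) and Psd3 (r = 0.97). Those closest to Cd93 were Emp1 (r = 0.97), Emb (r = 0.96) and Clec4d (r = 0.94), to C5ar1 Brk1 (r = 0.98), Bad (r = 0.97) and Zcchc17 (r = 0.95), and those close to Cr1l included Dnajb11 (r = 0.98) and Saraf (r = 0.98). These correlations are descriptions over 11 libraries that share tissues in pairs.

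The next question was what differed in Zeb2KO macs. Calls were few and differed by tissue: C3ar1 and Cd93 were higher in Zeb2KO AMs, Cd55 was higher in Zeb2KO SMs, and no member was called in microglia, CMs or KCs against the Zeb2fl/fl WT library.

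C3ar1, the receptor of C3a, went from 3 UMIs in WT AMs to 762 UMIs in Zeb2KO AMs. On the CPM scale this was 0.109 against 20.4, a fold of 187 (64 to 909, wide because of the 3 UMIs) and a log2 ratio of CPM + 1 of 4.27, the 50th largest in size of the 5810 AM genes that reached 20 CPM. Of those 5810 genes 679 were called, 11.7%, and of the 4 members that reached 20 CPM in AMs 2 were called, both higher (4.37% of the genes were called higher). C3ar1 reached 20 CPM only in the Zeb2KO library, so its entry into this count and its call were not separate events. The count is therefore not read as support. The median log2 ratio of the 5810 genes was -0.31, so AM ratios are read against that shift, and with TMM factors, which remove most of it, C3ar1 stood at 4.49. The share of AMs with at least 1 C3ar1 UMI was 0.0430% in WT and 9.44% in Zeb2KO, at median depths of 3587 and 5682 UMIs per cell. After each cell was thinned to 1000 UMIs the shares were 0.0287% and 1.12%. The B-cell and endothelial-type cells left out of the AM libraries, which should have little of the gene, were too few to set a background (0 of 20 WT and 1 of 26 Zeb2KO cells, 3.85%, had a C3ar1 UMI, at median depths of 2690 and 3934 UMIs). In the livers, whose KCs were rich in C3ar1, 16.8% to 29.4% of the B cells left out had a C3ar1 UMI, so a share alone is not read as expression. The Zeb2KO level, however, sat just past the 20 CPM needed for a call.

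Within the Zeb2KO AMs the C3ar1 transcript was unevenly spread. A cluster of 227 cells led by C1qa, C1qb and C1qc, which held 1 WT cell, had 111 CPM of C3ar1 and 26.2% of its UMIs. In that cluster the AM marker list summed to 3872 CPM, against 23079 CPM in the other Zeb2KO AMs, and the CM list (Cx3cr1, H2-Aa, Tgfbr2, Il10) to 2056 CPM against 208 CPM, so by markers these cells differed from the other Zeb2KO AMs. The gap in the AM list was smaller against WT AMs, where it summed to 6697 CPM. Chil3 alone was at 5761 CPM in WT and 20637 CPM in Zeb2KO AMs. The mac list summed to 2226 CPM in the cluster and 1200 CPM in the other Zeb2KO AMs. Without the cluster the remaining Zeb2KO AMs had 15.8 CPM of C3ar1 and a log2 ratio of 3.92, which was no longer a call because the level was under 20 CPM. Outside it, 468 cells led by Krt6b had 42.4 CPM, 2809 cells led by Krt18 and Krt8 had 17.9 CPM, and 1708 cells led by Spag11b had 1.05 CPM (7 UMIs). In WT, no cluster of at least 50 AMs held more than 2 C3ar1 UMIs.

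Cd93 was at 21.5 CPM in WT AMs and 86.7 CPM in Zeb2KO AMs (589 and 3232 UMIs), a fold of 4.04 (3.70 to 4.42) and a log2 ratio of 1.97, the 173rd largest in size. Its levels in the Zeb2KO clusters lay closer together, in proportion, than those of C3ar1. The genotypes were mostly in different clusters: the 4 clusters with at least 50 cells of each held 73.0% of WT and 32.4% of Zeb2KO AMs, and those led by Krt6b and by Krt18 and Krt8 held 0 WT cells. The cells led by Krt6b had 168 CPM, those led by Krt18 and Krt8 88.9 CPM, those led by Spag11b 58.8 CPM and the C1qa cluster 60.6 CPM, against 15.3 to 26.7 CPM in the WT clusters of at least 50 cells. The exception was a group of 57 Zeb2KO cells that clustered with the main WT population and had 19.1 CPM (3 UMIs). Without the C1qa cluster the Zeb2KO level was 88.1 CPM.

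C5ar1, the C5a receptor, moved the other way in the same cells, from 263 CPM in WT to 161 CPM in Zeb2KO AMs, a fold of 0.613 (0.593 to 0.635) and a log2 ratio of -0.70 (-0.43 with TMM factors), which was not a call. The cells led by Krt6b, which had the most Cd93, had 75.2 CPM of C5ar1, and the cells led by Spag11b 209 CPM. Cr1l was at 37.4 CPM in WT and 52.2 CPM in Zeb2KO AMs (log2 ratio 0.47, not a call). Cd55 (1 and 2 UMIs) and Cd59a (13 and 9 UMIs) were close to absent in both AM libraries. Lists of markers of other cells also differed between the AM libraries. The monocyte list summed to 8.49 CPM in WT and 76.7 CPM in Zeb2KO, with none of its 5 genes at 0 in either. The neutrophil list summed to 24.5 and 240 CPM, with 4 and 2 of its 7 genes at 0. The highest gene of each library held 3.28 and 55.8 CPM of the monocyte sums and 21.7 and 178 CPM of the neutrophil sums. The part of these lists in the AM results was not tested.

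**Figure D2:**
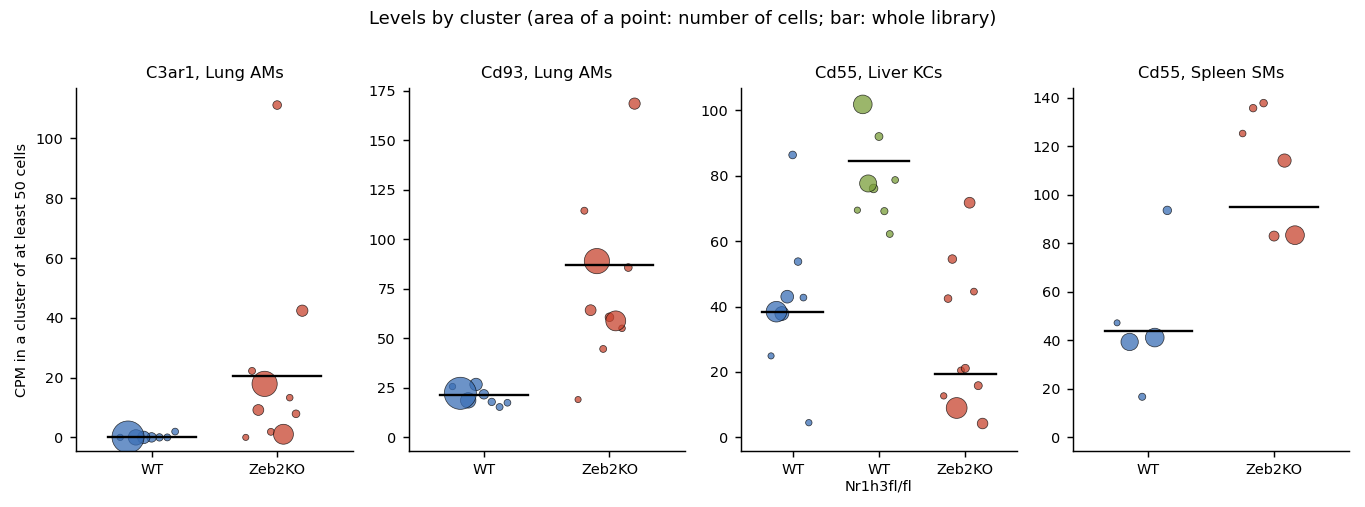
Levels of C3ar1 and Cd93 in AM clusters and of Cd55 in KC and SM clusters of at least 50 cells, in CPM, with a point for each cluster of a library and a bar for the whole library. The C3ar1 gain of Zeb2KO AMs reaches 111 CPM in 1 cluster and is near 1 CPM in another, while Cd55 of Zeb2KO KCs spans 4.24 to 71.8 CPM.

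Cd55, which takes C3 and C5 convertases apart, was called higher in Zeb2KO SMs and lay close to the call in CMs (higher) and KCs (lower). In SMs it was at 43.9 CPM in WT and 94.9 CPM in Zeb2KO (360 and 923 UMIs), a fold of 2.16 (1.91 to 2.45) and a log2 ratio of 1.10, the 166th largest of 6169 genes. In SMs 3.13% of the 6169 genes were called (2.33% higher), and 1 of the 2 members that reached 20 CPM. In CMs it was at 25.9 and 47.7 CPM, a fold of 1.84 (1.71 to 1.99), short of a call at a log2 ratio of 0.86. In KCs it was at 38.4 and 19.4 CPM, a fold of 0.505 (0.451 to 0.565), also short of a call at -0.95. Microglia and AMs had next to no Cd55 with or without Zeb2.

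The SM difference was seen in the clusters that both libraries shared. In 4 of 4 clusters with at least 50 cells of each genotype Cd55 was higher in the Zeb2KO cells: 41.1 against 125 CPM in the cells led by Bmp2 and Atf3, 39.3 against 138 CPM in those led by Pla2g2d and Cx3cr1, 16.7 against 82.9 CPM in those led by Ppbp, and 93.5 against 136 CPM in those led by Rasd1 and Fcer2a. In the last of these the B-cell list was raised over the other spleen cells (mean log2 fold 1.35) and the mac list was not (-0.21), and with a stricter removal of other cell types that left it out, chosen after seeing the data, the SM log2 ratio was 1.24. These 4 clusters held 95.6% of the WT but 23.7% of the Zeb2KO SMs. The other Zeb2KO cells were mostly in clusters led by Arc and Nfasc (83.3 CPM) and by Il1f9 and Plet1 (114 CPM). B cells are rich in Cd55: the B-cell clusters left out of the spleen libraries had 212 CPM in WT and 174 CPM in Zeb2KO, and when all cells that passed the filter were kept the SM log2 ratio was 0.59, below the call. Among kept SMs the B-cell list, with all 6 genes detected, summed to 264 CPM in WT and 177 CPM in Zeb2KO. The endothelial list summed to 167 and 72.2 CPM, of which the highest gene of each library held 163 and 70.1 CPM. The plasma-cell list summed to 28.3 and 77.9 CPM. The part of these lists in the Cd55 levels was not tested.

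In the colon, too, Cd55 was higher in Zeb2KO cells in 8 of 8 shared clusters, which held 74.2% of Zeb2KO and 83.9% of WT CMs. It ranged there from 5.28 CPM (WT cells led by H2-M2 and Pgf) to 89.0 CPM (Zeb2KO cells led by Ccl8), and Cd55 was itself among the leading genes of the latter cluster. The widest gap was in cells led by Retnla, Vsig4 and Lyve1, at 21.2 CPM in WT and 79.7 CPM in Zeb2KO. A cluster of 777 Zeb2KO and 30 WT cells led by Hp, Mmp8 and Ms4a1 stood apart, with 9.66 CPM of Cd55.

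In the liver the low Cd55 of the Zeb2KO library lay in clusters that held few or no WT cells. The 1874 Zeb2KO KCs led by Siglecf, a cluster with no WT cell, had 8.98 CPM, and 398 cells led by Mmp12 and Cx3cr1 (41 WT cells) had 4.24 CPM, whereas 422 cells led by Meg3 and Cd209f had 71.8 CPM. In the 5 clusters shared with WT it was higher in 3, for example 38.4 CPM in WT and 42.4 CPM in Zeb2KO cells led by Sdc2 and Clec4f, and lower in 2, both led by cell-cycle genes. These 5 clusters held 87.7% of WT and 21.7% of Zeb2KO KCs. Because clusters were built from the same cells and genes, these levels are descriptions. In KCs 4.66% of the 5391 genes considered were called, and 0 of the 4 members considered.

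**Figure D3:**
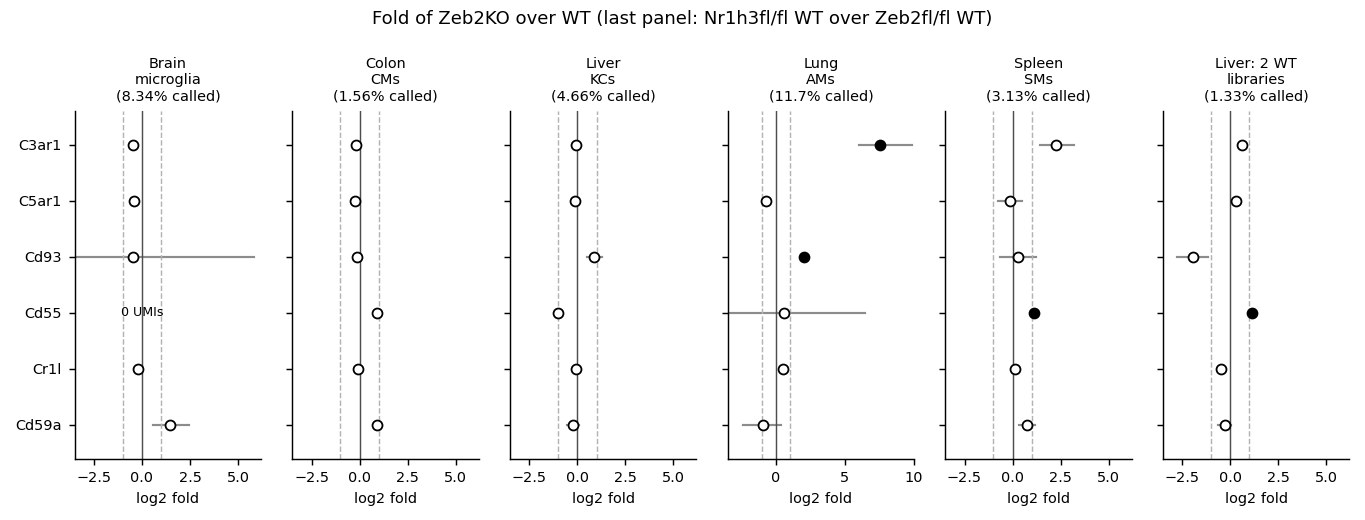
Fold of Zeb2KO over WT on a log2 scale (CPM without a pseudocount) for each member in each tissue, and of the Nr1h3fl/fl over the Zeb2fl/fl WT liver library; grey lines are exact 95% intervals, clipped at the panel edge, dashed lines mark a log2 ratio of 1 in size, and filled symbols are calls, which used CPM + 1. Calls are seen for C3ar1 and Cd93 in AMs, for Cd55 in SMs and for Cd55 between the control libraries.

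The spread between libraries without deletion was large for Cd55. The Nr1h3fl/fl WT KCs had 84.5 CPM (80.3 to 88.7) against 38.4 CPM in the Zeb2fl/fl WT KCs, a fold of 2.20 (2.03 to 2.39) and a log2 ratio of 1.12, a call and the 52nd largest of 5556 genes, of which 1.33% were called (0.504% higher). It was higher in 7 of 7 shared clusters. The median mitochondrial share of UMIs also differed, at 2.95% in the Zeb2fl/fl and 4.98% in the Nr1h3fl/fl WT library, and its part was not tested. Against the Nr1h3fl/fl library the Zeb2KO KCs had a log2 ratio of -2.07, a call where 8.39% of 5754 genes were called (4.14% lower), and against the Zeb2fl/fl library -0.95. These comparisons share libraries. The Zeb2KO level was below both controls, but the controls differed from each other by more than the Zeb2KO library differed from the nearer one. The study also measured the CD55 protein by flow cytometry. It reported lower CD55 in SiglecF+ Zeb2-deleted KCs than in Zeb2fl/fl KCs, and in KCs without Nr1h3. That is a measure of protein in sorted groups, unlike the RNA of whole libraries here. The study gave it as a follow-up of transcripts that were lower in its single-cell RNA of both kinds of KCs. In the marker split described below, Zeb2KO KCs with a UMI of Siglecf or Ms4a1 had 11.8 CPM of Cd55. Those with none had 28.2 CPM, against 38.4 CPM in Zeb2fl/fl KCs (log2 ratio of marker-positive cells -1.62). The difference between the controls was also as large as the SM call (1.10) and larger than the CM ratio (0.86). Endothelial-type clusters left out of the livers were rich in Cd55, at 168 CPM (WT), 228 CPM (Zeb2KO) and 225 CPM (Nr1h3fl/fl), as were the B-cell clusters, at 214, 157 and 139 CPM, and with all cells kept the log2 ratio was -0.07 for Zeb2KO over WT, 0.75 between the controls and -0.83 for Zeb2KO over Nr1h3fl/fl, none of them a call. In kept cells the endothelial list, with all 8 genes detected in each, summed to 115 CPM (WT), 92.2 CPM (Zeb2KO) and 133 CPM (Nr1h3fl/fl). The sums had the same order as Cd55, but much of each control sum was the highest gene of the list. The highest gene of each library, not checked to be the same one, held 79.7 CPM (WT), 29.96 CPM (Zeb2KO) and 103 CPM (Nr1h3fl/fl). The sum without the highest gene of its own library was largest in Zeb2KO and did not follow the order of Cd55. The part of the list in the Cd55 levels was not tested.

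No other member was called between the control livers. C3ar1 was at 141 CPM in the Zeb2fl/fl and 216 CPM in the Nr1h3fl/fl library (log2 ratio 0.61), C5ar1 at 96.0 and 116 CPM (0.27), Cr1l at 66.7 and 47.6 CPM (-0.48) and Cd59a at 8.19 and 6.77 CPM. Cd93 was at 3.46 and 0.913 CPM (81 and 17 UMIs), a log2 ratio of -1.22 at a level too low for a call, and without the Alox15 cluster the Zeb2fl/fl level was 1.51 CPM. The control difference in C3ar1 exceeded in size the Zeb2KO differences of C3ar1 in microglia, CMs and KCs (-0.49, -0.19 and -0.07).

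C5ar1 was lower in Zeb2KO than in WT in 5 of 5 tissues, though in none by enough for a call. It was at 153 and 116 CPM in microglia, 499.9 and 423 CPM in CMs, 96.0 and 87.3 CPM in KCs, 263 and 161 CPM in AMs, and 5.24 and 4.83 CPM in SMs, where the fold interval (0.597 to 1.43) spanned equality and the log2 ratio was 0.05 when other cell types were removed more strictly, an alternative chosen after seeing the data. The log2 ratios were -0.40, -0.24, -0.13, -0.70 and -0.10, of which those of CMs, KCs and SMs were smaller in size than the 0.27 between the control livers. Zeb2KO over WT was then fitted across the 5 tissue pairs with tissue as a block, where the replicates are the tissues (edgeR quasi-likelihood F-test). The C5ar1 log2 fold change was -0.27 ± 0.093 (SE), with an unadjusted p of 0.0242 and an adjusted p of 0.367 over 13960 genes (0.135 to 0.601 over the alternatives). In this edgeR fit 0 of the 13960 genes (0%) passed an adjusted p under 0.05 and 11.3% had an unadjusted p under 0.05, so a member at this unadjusted p was not unusual. DESeq2 called 350 genes (2.51%), none of them a member.

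The other members did not pass the edgeR test over the pairs either. The log2 fold change was 0.95 ± 1.02 (SE) for C3ar1 (adjusted p = 0.734), 0.84 ± 0.409 for Cd93 (0.494), 0.35 ± 0.425 for Cd55 (0.769), 0.11 ± 0.152 for Cr1l (0.793) and 0.50 ± 0.318 for Cd59a (0.577). Without the AM pair that of C3ar1 was 0.14, that of Cd93 0.27 and that of Cr1l -0.053, while that of Cd55 was -0.033 without the SM pair and 0.98 without the KC pair, so the signs of Cr1l and Cd55 rested on single pairs.

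Outside AMs and SMs C3ar1 was lower in Zeb2KO by less than a call. Microglia had 204 CPM in WT and 146 CPM in Zeb2KO, a fold of 0.713 (0.674 to 0.754). No microglia cluster held at least 50 cells of each genotype, so there was no shared cluster in which to compare them. The erythroid list summed to 610 CPM in WT and 40.0 CPM in Zeb2KO microglia, and 1265 WT cells in a cluster led by Hba-a1 and Hba-a2 had 224 CPM of C3ar1, against 156 CPM in the 1471 WT cells led by Jam3. In KCs that list summed to 223 and 6.08 CPM. Other lists rose in Zeb2KO microglia: the monocyte list from 7.54 to 38.5 CPM, of which 1 gene held 36.0 CPM, and the neutrophil list from 1.05 to 96.2 CPM, with 6 of its 7 genes at 0 in Zeb2KO. The part of these lists in the levels was not tested. In microglia 8.34% of 5922 genes were called, and 0 of the 3 members considered (C3ar1, C5ar1 and Cr1l, the last at 128 and 112 CPM). CMs had 286 and 251 CPM, where 1.56% of 5118 genes were called and 0 of the 5 members considered, and KCs 141 and 134 CPM. SMs had 14 UMIs in WT and 80 in Zeb2KO, 1.71 and 8.22 CPM, a fold of 4.82 (2.71 to 9.22) at a level too low for a call. Within microglia C3ar1 was uneven: 149 Zeb2KO cells led by Gpnmb and Spp1 had 291 CPM, 945 led by Siglecg had 91.2 CPM, and 65 WT cells led by Ifitm1 and Pf4, in which the list of microglia markers summed to 17277 CPM against 21037 CPM elsewhere, had 475 CPM of C3ar1 and 470 CPM of C5ar1. The monocyte list summed to 88.2 CPM in these 65 cells (2 of its 5 genes at 0) and 5.17 CPM in the other WT microglia, and its part in these levels was not tested.

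Cr1l, the most even of the members, differed by at most 0.47 on the log2 scale between genotypes (AMs, where the ratio was 0.74 with TMM factors), and was at 55.4 and 52.5 CPM in CMs, 66.7 and 63.7 CPM in KCs and 40.9 and 44.6 CPM in SMs. Cd93 in CMs was at 237 and 215 CPM, in KCs at 3.46 and 6.40 CPM, in SMs at 2.19 and 2.67 CPM (log2 ratio 0.20, but -0.43 with all cells that passed the filter) and in microglia at 1 UMI in each library. Cd59a stayed under 20 CPM in every library, at 1.05 and 2.89 CPM in microglia (13 and 49 UMIs), 5.42 and 10.2 CPM in CMs, 8.19 and 7.05 CPM in KCs (log2 ratio -0.19, but 0.74 with all cells that passed the filter), 0.474 and 0.242 CPM in AMs and 9.02 and 15.3 CPM in SMs. Its fold was 2.75 (1.47 to 5.52) in microglia, 1.89 (1.60 to 2.23) in CMs and 1.70 (1.28 to 2.28) in SMs.

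Outside the brain, Zeb2KO macs can include cells that keep a Zeb2 allele. Zeb2KO cells, microglia included for comparison, were therefore split by the surface markers with which the study tells deleted cells, into those with at least 1 UMI of a marker and those with none; marker-positive cells were also the deeper ones (median 6427 against 3853 UMIs in AMs). A marker was found in 85.1% of Zeb2KO and 13.5% of WT microglia (Siglecf or Cd101), 69.2% and 13.4% of AMs (Epcam or Cd101), 51.7% and 1.22% of KCs (Siglecf or Ms4a1), 501 of 3861 Zeb2KO and 0.713% of WT CMs (Ms4a1 or Siglecf) and 4.49% and 0.279% of SMs (Siglecf or Epcam). The markers were chosen by the study on these cells, and cells without a marker UMI may still be deleted.

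C3ar1 was at 23.1 CPM in marker-positive and 11.1 CPM in marker-negative Zeb2KO AMs, against 0.109 CPM in WT. Cd93 was at 89.2 and 78.2 CPM, against 21.5 CPM in WT, and C5ar1 at 156 and 179 CPM, against 263 CPM. Both groups of Zeb2KO AMs thus lay on the same side of WT for these receptors. In CMs C5ar1 was at 274 CPM in marker-positive and 446 CPM in marker-negative cells (WT 499.9 CPM), and Cd93 at 126 and 229 CPM (WT 237 CPM), so that marker-negative cells were near WT. Cd55 was lower in the marker-positive cells of both CMs and KCs. In CMs it was at 13.7 CPM in marker-positive and 53.1 CPM in marker-negative cells (WT 25.9 CPM), and in KCs at 11.8 and 28.2 CPM (WT 38.4 CPM). The higher Cd55 of the Zeb2KO colon was therefore found in cells without a deletion marker, and marker-positive cells of both tissues were below WT. In SMs the 135 marker-positive cells had 67.3 CPM (48.3 to 91.3) and the others 96.7 CPM (WT 43.9 CPM). CMs and SMs were sorted without SiglecF, which limits Siglecf as a marker there. The SM clusters led by Arc and Nfasc (1499 Zeb2KO and 42 WT cells) and by Il1f9 and Plet1 (694 and 1) lay mostly in the group without a marker UMI. That group is therefore not read as undeleted SMs. In KCs C5ar1 was at 74.2 and 103 CPM (WT 96.0 CPM) and C3ar1 at 145 and 121 CPM (WT 141 CPM), and in microglia C3ar1 was at 147 and 135 CPM (WT 204 CPM) and C5ar1 at 116 CPM in both (WT 153 CPM).

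**Figure D4:**
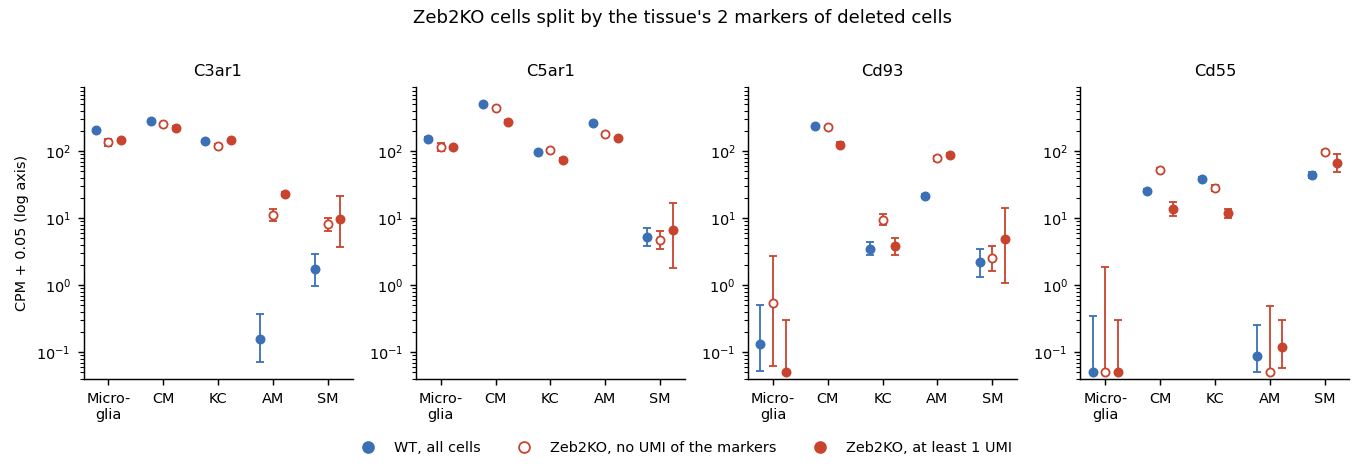
Level of the members, in CPM, in WT cells and in Zeb2KO cells with and without a UMI of a deletion marker, by tissue. In CMs Cd55 is 13.7 CPM in marker-positive and 53.1 CPM in marker-negative Zeb2KO cells, on either side of the 25.9 CPM of WT.

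The rest of the system was read from a fixed list of 49 complement genes other than the members, of which 48 were in the files. By the same rule, 2 of the 12 considered were called in microglia (both higher, with 8.34% of all genes considered called), 3 of 16 in CMs (all higher, 1.56%), 6 of 20 in KCs (1 higher, 5 lower, 4.66%), 5 of 13 in AMs (all higher, 11.7%) and 4 of 16 in SMs (3 higher, 1 lower, 3.13%). The AM calls included C1qa, C1qb and C1qc, and without the cluster of 227 Zeb2KO cells that they lead 3 of 10 were called (C3, Itgam and Cfb, with 11.5% of all genes). Genes of 1 system are not independent, and these shares were not tested against each other. Many genes called higher, such as C1qa, C1qb, C1qc and Itgam in AMs, reached 20 CPM only in Zeb2KO. They entered the counts through the library where they were high. The genes called in the same direction in more than 1 tissue were C3, Itgam, Itgax and C6. C3, the source of C3a, was at 0.162 CPM in WT and 42.9 CPM in Zeb2KO microglia, 23 and 69.8 CPM in CMs, and 30.3 and 151 CPM in AMs. It was at 14.4 and 22.6 CPM in KCs and 46.8 and 56.1 CPM in SMs. AMs were therefore the tissue in which both the source and the receptor of C3a were called higher. The C3ar1 call held under 5 of 9 alternatives, some of which could not have changed it, and was lost without the C1qa cluster.

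Itgam and Itgax encode the α chains of complement receptors 3 and 4 (CD11b and CD11c), which bind iC3b together with the β chain encoded by Itgb2. Itgam was at 0.729 CPM in WT and 43.6 CPM in Zeb2KO AMs and at 5.97 and 54.7 CPM in SMs. Itgax was at 5.03 and 36.8 CPM in microglia, 3.07 and 34.3 CPM in KCs and 30.9 and 174 CPM in SMs. Itgam became a call in KCs without the Alox15 cluster (1.47, chosen after seeing the data) and without the 5% of cells with the most UMIs, and Itgax in AMs with TMM factors (1.06). Itgb2 lay between 121 and 337 CPM and was called in no tissue. Vsig4, the iC3b receptor of KCs, was at 3286 CPM in WT, 1739 CPM in Zeb2KO and 3151 CPM in Nr1h3fl/fl KCs, short of a call, and at 14.7 and 99.7 CPM in CMs, a call. C5ar2, the other C5a receptor, lies beside C5ar1 on chromosome 7, and ran from 17.6 to 86.4 CPM. It was at 43.1 CPM in WT and 86.4 CPM in Zeb2KO microglia, the opposite direction to C5ar1, at a log2 ratio of 0.99 that was just short of a call. With TMM factors (1.08), without the 5% of cells with the most UMIs (1.03) and with each cell weighted equally (1.03) it was a call. C5ar2 had 472 UMIs in the Zeb2fl/fl and 821 UMIs (44.1 CPM) in the Nr1h3fl/fl control livers, a call. C6, a component of the membrane attack complex, was at 495 and 116 CPM in KCs and 462 and 216 CPM in SMs. Cr2, a receptor of B cells, reached 16.3 CPM in WT and 15.2 CPM in Zeb2KO SMs and at most 1.05 CPM elsewhere, and Cd46, a regulator with restricted expression in mice, at most 1.83 CPM.

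**Figure D5:**
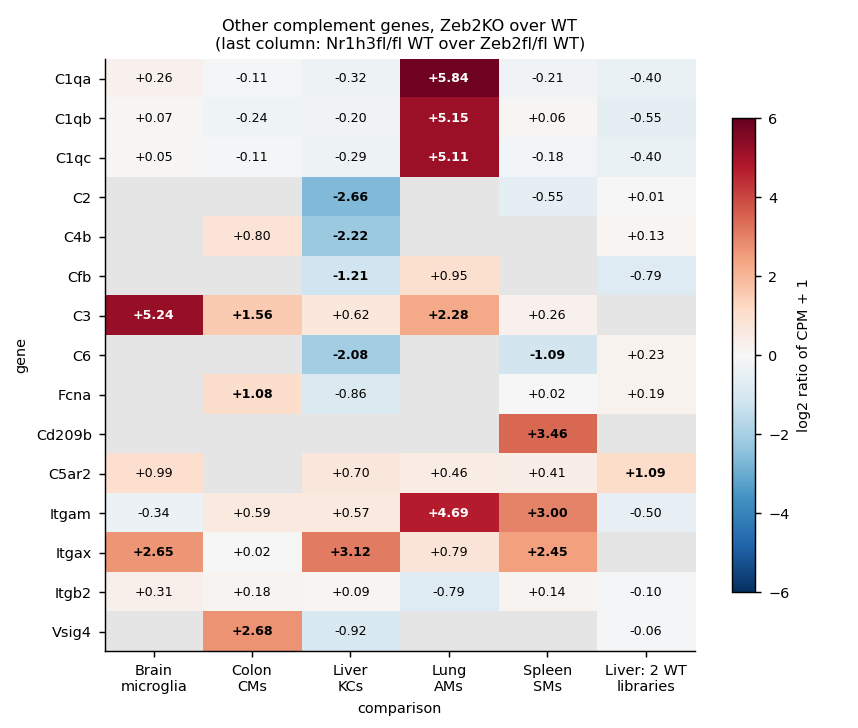
Log2 ratio of CPM + 1 of Zeb2KO over WT for other complement genes in each tissue, with the ratio of the Nr1h3fl/fl over the Zeb2fl/fl WT liver library in the last column; bold values are calls and grey cells had less than 20 CPM in both libraries. C3 is called higher in microglia, CMs and AMs, Itgax in microglia, KCs and SMs, and C6 lower in KCs and SMs.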

How the data were processed

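UMI counts per gene and cell were deposited by the authors as 1 table per library, made with CellRanger 2.0.0 (KCs, AMs) or 2.0.2 (microglia, SMs, CMs) and mm10, with no normalization. The members and lists were chosen with earlier results of these data known.

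Cells over 3 median absolute deviations from the library's median (log UMIs or genes either way, mitochondrial share high) were dropped, 4.66% to 9.22%. Kept cells of a tissue were clustered together in scanpy 1.11.5 (2000 variable genes, 30 components, 15 neighbours, Leiden resolution 0.8), and clusters that met a rule on another cell type's markers (0% to 22.2% of cells) were left out. Some clusters with such markers did not meet the rule and stayed. Among them were 74 spleen cells led by S100a9 and S100a8 (neutrophil list, mean log2 fold 5.62) and 143 liver cells led by Cd209a (dendritic list, 3.60). The stricter removal left these out, and their part in the levels was not tested further. That removal spared clusters far richer in Zeb2KO than in WT cells, such as the colon cluster led by Hp, Mmp8 and Ms4a1. It had no like exemption for WT-rich clusters, so it depended on genotype. No doublet caller was run. Counts were summed per library and scaled to CPM. Within a tissue, with 1 library per group, calls used a log2 ratio of 1 on CPM + 1 and 20 CPM. Across the 5 pairs, edgeR 4.0.16 (TMM, filterByExpr, quasi-likelihood F-test, tissue as a block, Benjamini-Hochberg over all genes) was used in R 4.3.3, with DESeq2 1.42.0 as an alternative, after tests on simulated counts. Each tissue pair is a replicate, so these p-values measure the spread between tissues. Named were all members, C5ar2, Cr2, Cd46, Cd55b, Cd59b, Itgb2, Itgam, Itgax, Vsig4, and listed genes called alike in at least 2 tissues. Clusters, and the genes that lead them, were picked for mention after their values were seen. Alternatives changed the scaling, floor, pseudocount, cells kept, control and tool. The study's single-cell tests were not used. Intervals cover counting error only. Some genes that the naming rule selects are not reported here.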

Additional observations from a re-analysis of the deposited data

Results flagged for a closer look

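The following results stood out because the ratio was past the call in at least 1 tissue and of the opposite sign in another. None of these differences between tissues was tested, since each rests on 1 library per group. The log2 ratio of C3ar1 was 4.27 in AMs and -0.49 in microglia. The log2 ratio of Cd93 was 1.97 in AMs and -0.14 in CMs. The log2 ratio of Cd55 was 1.10 in SMs and -0.95 in KCs. Among the other complement genes, Itgam had a log2 ratio of 4.69 in AMs and 3.0 in SMs and of -0.34 in microglia, and Vsig4 one of 2.68 in CMs and -0.92 in KCs.

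A signal also lay in cells that the comparisons left out. In the endothelial-type clusters of the liver Cd59a reached 131 CPM in Zeb2KO, 88.4 CPM in Zeb2fl/fl WT and 55.6 CPM in Nr1h3fl/fl WT, against at most 15.3 CPM in the kept cells of any library. No doublet caller was run on these clusters. The levels pool a cluster led by Cldn5 and Oit3 with another led by Amotl1 and Cyp26b1, in which the endothelial list was raised less. The Cldn5 cluster held 329 of the 501 Zeb2KO cells, 103 of the 251 Zeb2fl/fl WT cells and 26 of the 72 Nr1h3fl/fl WT cells. The part of this mix in the Cd59a levels was not tested, so their order is not read as a difference between genotypes.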

How the results depend on the processing

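The only paired analysis was the fit over 5 tissue pairs with tissue as the block, since the labels carry no replicate numbers and each group had 1 library. Of 276 recomputed log2 ratios of the members (the CPM floors, which do not enter a ratio, left out), 248 moved by less than the counting interval and 28 by more, and 273 kept their sign. The 3 that did not were no calls: Cd59a in KCs (0.74) and Cd93 in SMs (-0.43) with all filtered cells, and C5ar1 in SMs (0.05) with a stricter removal of other cell types, chosen after seeing the data. Not every alternative could change a call. A floor of 5 CPM cannot lose one, and a floor of 50 CPM cannot lose one whose higher level lies above it. The stricter removal took out no further AM cluster. The counts below include such alternatives, whose outcome was fixed in advance. The AM call of Cd93 held under 9 of 9 alternatives (1.79 to 2.23). That of C3ar1 held under 5 of 9 (2.32 to 4.49): 1 AM member was called, not 2, with a floor of 50 CPM (13% of all genes called), without the 5% of cells with the most UMIs, without the C1qa cluster (chosen after seeing the data) and with each cell weighted equally. The SM call of Cd55 held under 7 of 8 (0.59 to 1.24), that between control livers under 8 of 9 (0.75 to 1.12) and that of Zeb2KO over Nr1h3fl/fl KCs under 8 of 9 (-2.07 to -0.83). With all filtered cells 0 members were called in SMs and 0 between the controls, and Cd59a (1.44) in place of Cd55 for Zeb2KO over Nr1h3fl/fl KCs. A floor of 5 CPM gave 2 called members in SMs (4.49% of all genes called) and 2 for Zeb2KO over Nr1h3fl/fl KCs (9.56%), and with Nr1h3fl/fl as the liver control 1 KC member was called.

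Over the pairs edgeR called 0 genes, 3 without a low-count filter and 0 to 1 when a pair was left out (1 without AMs, 1 without SMs), and DESeq2 350. Leaving out a pair gave Cr1l log2 fold changes of -0.053 (without AMs) to 0.17 and Cd55 ones of -0.033 (without SMs) to 0.98 (without KCs), so both reversed; the cause was not tested beyond the pair removed. The other 64 of 66 fitted member values kept their direction.

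Of the other complement genes, 20 calls over the 5 tissues became 13 at a floor of 50 CPM (0 in microglia, with 9.02% of all genes called, 2 in AMs, with 13%, and 0 between controls, with 1.31%), 3 in AMs without the C1qa cluster, and 0 between controls with a pseudocount of 5 CPM. Levels of few UMIs (C3ar1 in WT AMs, Cd93 in microglia, Cd55 in AMs and microglia) limit their ratios by counting, and 1 library per group leaves the spread between animals unmeasured.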

Other observations

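Cells left out as other types also carried members. B cells left out of the spleen had Cd93 at 27.3 CPM in WT and 11.4 CPM in Zeb2KO (41 and 15 UMIs), against 2.19 and 2.67 CPM in the SMs kept. Endothelial-type clusters of the liver had Cd93 at 53.4 CPM (WT), 75.2 CPM (Zeb2KO) and 76.4 CPM (Nr1h3fl/fl), against 3.46, 6.40 and 0.913 CPM in kept KCs. The 27 endothelial-type cells left out of the Zeb2KO colon had 225 CPM of Cd93 (32 UMIs). Cr1l was at 54.6 and 47.0 CPM in the spleen B cells and at 66.6, 75 and 46.3 CPM in the endothelial-type clusters of the WT, Zeb2KO and Nr1h3fl/fl livers, against 40.9 to 66.7 CPM in the WT SMs and KCs kept. The endothelial-type clusters also had C3ar1 at 109, 104 and 195 CPM and C5ar1 at 90.6, 62.7 and 111 CPM in the same order of libraries, receptors that the kept KCs carried too, so none of these levels is read as that of endothelial cells alone.

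In Zeb2KO CMs the cluster led by Hp, Mmp8 and Ms4a1 (777 cells) had C5ar1 at 238 CPM, Cd93 at 102 CPM and C3ar1 at 180 CPM, against 423, 215 and 251 CPM in the whole Zeb2KO library. C3ar1 was lower in Zeb2KO than in WT cells in 8 of 8 clusters shared by the CM libraries, and C5ar1 in 6 of 8. C3ar1 and C5ar1 were higher in the Nr1h3fl/fl than in the Zeb2fl/fl control KCs in 7 of 7 shared clusters.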
